A study of Mus musculus with 32 samples.

Results

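Messenger RNA of whole WT mouse embryos was compared between E8.5 and E9.5 (E for embryonic day), the day in which the embryo turns, closes most of its neural tube and puts its first blood cells into circulation. The comparison used all 10 WT libraries of E8.5 and all 9 of E9.5, 19 of the 32 libraries of the series, chosen by the genotype and stage in their labels and by no measured value. WT and Commd10Null embryos came from interbreeding of Commd10Het mice (B6.Cg-Commd10Tg(Vav1-icre)A2Kio/J), in which a transgene with the promoter of the blood cell gene Vav1 lies within Commd10. WT embryos were the offspring without this insertion by genotyping of yolk sac DNA, so neither stage carried it, and the labels name no treatment. Embryos were timed by the vaginal plug, taken out of their yolk sacs and kept whole, and the sources used here do not say whether a library holds 1 embryo, or from which litter. The p-values therefore measure only the spread between these libraries, which may be technical. Commd10Null embryos of E8.5 and E9.5 (3 libraries each) and WT embryos of E10.5 (4 libraries) were used only to test where this step differed from theirs.

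At E8.5 the mouse embryo still holds an open neural plate, few somites, a heart tube that has begun to beat and a caudal end with remnants of the primitive streak, which feeds new cells into the axis. Over the next day neural progenitors begin to leave the cell cycle as neurons, neural crest cells spread, limb buds appear and primitive erythroid cells, which form in the yolk sac, fill the vessels of the embryo. The visceral endoderm of the yolk sac is a neighbouring tissue that absorbs and secretes nutrients and lipoproteins, and it is continuous with the gut of the embryo at these stages.

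The libraries held 3′ tags from 7025188 to 8583012 total counts, in similar ranges at E8.5 (7346301 to 8583012) and E9.5 (7025188 to 8328137). Values are given as CPM (counts per 1000000) scaled by TMM factors, which ran from 0.9385 to 0.9999 at E8.5 and from 1.007 to 1.076 at E9.5. Identifier ENSMUSG00000119584, which has no gene symbol, took 15.0 to 19.8% of the counts at E8.5 and 4.17 to 8.83% at E9.5. Several genes that every cell uses, such as mt-Co2, mt-Co3, mt-Atp6 and Rpl24, were listed at or near 0 in all libraries, so a level near 0 in this table does not show that a gene is silent. Each library held mainly Xist or mainly Y-linked transcripts, with Xist above the Y genes in 6 of 10 libraries at E8.5 and 3 of 9 at E9.5. Counts of both Xist and Y genes were present in E8.5 replicates 6 (2 and 679), 9 (837 and 1) and 10 (13 and 709). Levels were more uneven between E8.5 libraries than between E9.5 libraries, with a larger standard deviation (SD) of log2 (CPM + 1) at E8.5 for 10172 of the 12718 genes tested and a median SD of 0.29 against 0.2.

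The E8.5 libraries were not alike in several genes and gene lists that changed between the stages. The summed level of the sarcomere and heart muscle list was 839.7, 772 and 958 CPM in replicates 6, 8 and 9 and between 1690.3 and 3716 CPM in the other 7. The same 3 libraries had the highest levels of Vrtn (46.5, 33.6 and 41.4 CPM against at most 10.6) and the lowest of Nr2f1 (3.85, 1.59 and 7.73 against at least 21.1). The summed level of the tailbud list was lowest in replicates 1 and 10, at 294 and 371 CPM, within the 283 to 428 CPM of E9.5. Vrtn was lowest in another library, replicate 2, at 1.3 CPM. Whether the libraries differed in stage or in the tissue they held was not tested. With replicates 6, 8 and 9 left out, a choice made after seeing these values, the comparison below gave 876 genes higher and 553 lower, against 891 and 647 with all libraries.

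Of 12718 genes tested, 6510 passed at an adjusted p of 0.05 or less, 25.3% of those tested being higher and 25.9% lower at E9.5. Genes that passed and also changed at least 2-fold (a log2 fold change of 1 or more in size) were counted as differentially expressed genes (DEGs). There were 1538, of which 891 (7.01% of genes tested) were higher and 647 (5.09%) lower at E9.5. Every E9.5 library lay above every E8.5 library for 6.94% of all genes tested and below for 5.94%, and the groups did so in one direction or the other for 755 of the 1538 DEGs. The median log2 fold change over all genes tested was -0.01. These shares are the background for the gene lists below, which are described by the number of their members past the filter on low counts, the number called and the median log2 fold change. The filter asks for counts in 9 libraries, the size of the E9.5 group, so a gene present at only 1 stage can enter through that stage alone, and a count over a list has no test of its own. In whole embryos, fewer cells of a type and less RNA per cell cannot be told apart. The plot of gene lists shows where the DEGs lay.

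**Figure D1:**
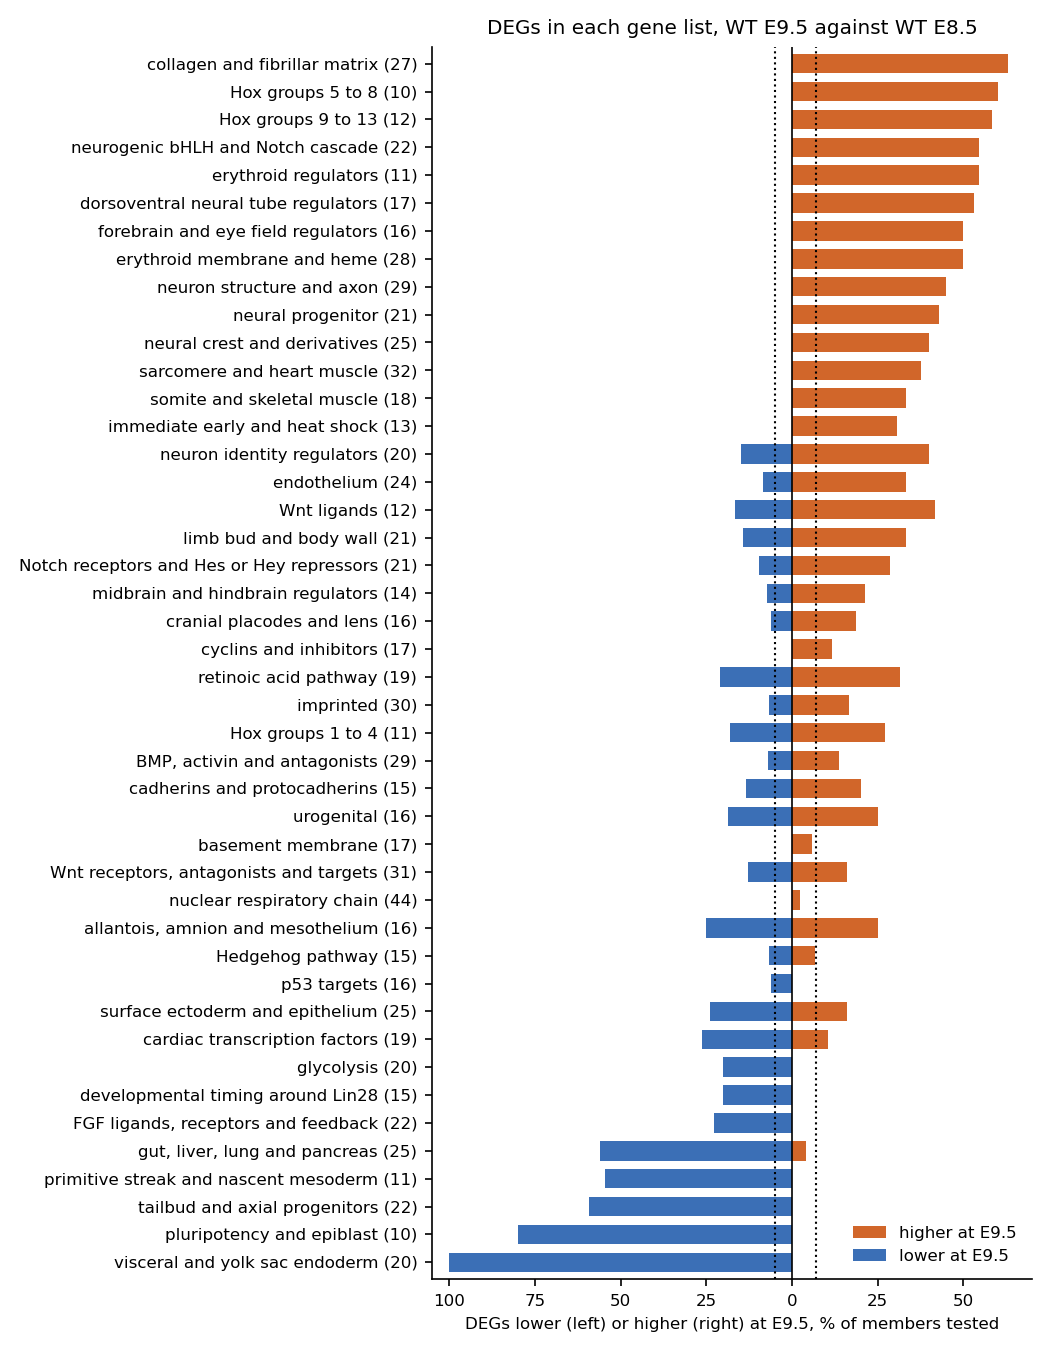
Share of the members past the filter that were DEGs, in percent, for the 44 gene lists with at least 10 members tested and at least 1 DEG (rows), with members higher at E9.5 to the right and members lower at E9.5 to the left of 0. The number of members tested stands beside each name, and dotted lines mark the shares over all genes tested, 7.01% higher and 5.09% lower. All 20 tested members of the visceral and yolk sac endoderm list were lower, and the DEGs of the erythroid, neurogenic and fibrillar matrix lists are higher at E9.5 only.

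Globin genes of embryonic red cells rose steeply. Hbb-y, the late embryonic beta-type globin, ran from 0 to 64.1 CPM (median 5.72) at E8.5 and from 2984 to 10800.3 CPM (median 4198) at E9.5. Its log2 fold change was the largest among DEGs whose stages did not overlap (log2 fold change 8.69, SE 0.65, adjusted p = 2.5e-10), and the lowest E9.5 library lay far above the highest E8.5 library. Hbb-bh1, the early embryonic beta-type globin, ran from 7.48 to 237 CPM (median 34.4) at E8.5 and from 1534 to 4595 CPM (median 1783) at E9.5 (log2 fold change 5.06, SE 0.5, adjusted p = 2.07e-08). Hba-x, the embryonic alpha-type (zeta) globin, ran from 1.35 to 142 CPM (median 17.7) at E8.5 and from 1664 to 6549.9 CPM (median 1967) at E9.5 (log2 fold change 5.97, SE 0.59, adjusted p = 1.65e-08). All embryonic globins were thus separated between stages without overlap, and the fourth, Hbb-bh2, had too few counts to test. Of the adult genes, the alpha globin Hba-a1 ran from 3.19 to 53.3 CPM (median 28.9) at E8.5 and from 609 to 2166 CPM (median 901) at E9.5 (log2 fold change 5.31, SE 0.34, adjusted p = 3.5e-11). Its near-identical copy Hba-a2 ran from 2.45 to 41.7 CPM (median 16.3) at E8.5 and from 237 to 826 CPM (median 347) at E9.5 (log2 fold change 4.55, SE 0.35, adjusted p = 4.03e-10), and reads of such copies may have been split between them in counting. The adult beta globins did not pass the test. Hbb-bs ran from 8.83 to 201 CPM (median 44.5) at E8.5 and from 25.7 to 67.4 CPM (median 40.0) at E9.5, with overlapping groups and a log2 fold change of -0.49 (95% interval -1.33 to 0.35, adjusted p = 0.326). Hbb-bt ran from 2.21 to 46.9 CPM (median 7.72) at E8.5 and from 8.65 to 50.1 CPM (median 18.0) at E9.5, also with overlap (log2 fold change 0.7, SE 0.45, adjusted p = 0.201), and passed without E8.5 replicate 9 (1.15, adjusted p = 0.0223). Within E8.5, all adult-type globins were lowest in replicate 8 (Hbb-bs 8.83 CPM, Hbb-bt 2.21, Hba-a1 3.19 and Hba-a2 2.45) and highest in replicate 9 (Hbb-bs 201 CPM, Hbb-bt 46.9, Hba-a1 53.3 and Hba-a2 41.7). The embryonic globins were highest in replicate 2 instead, at 64.1 CPM for Hbb-y, 237 for Hbb-bh1 and 142 for Hba-x. Whether the adult-type globin counts came from cells of the embryo was not tested. At E9.5, replicate 9 was highest for each of Hbb-y, Hbb-bh1, Hba-x, Hba-a1 and Hba-a2.

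**Figure D2:**
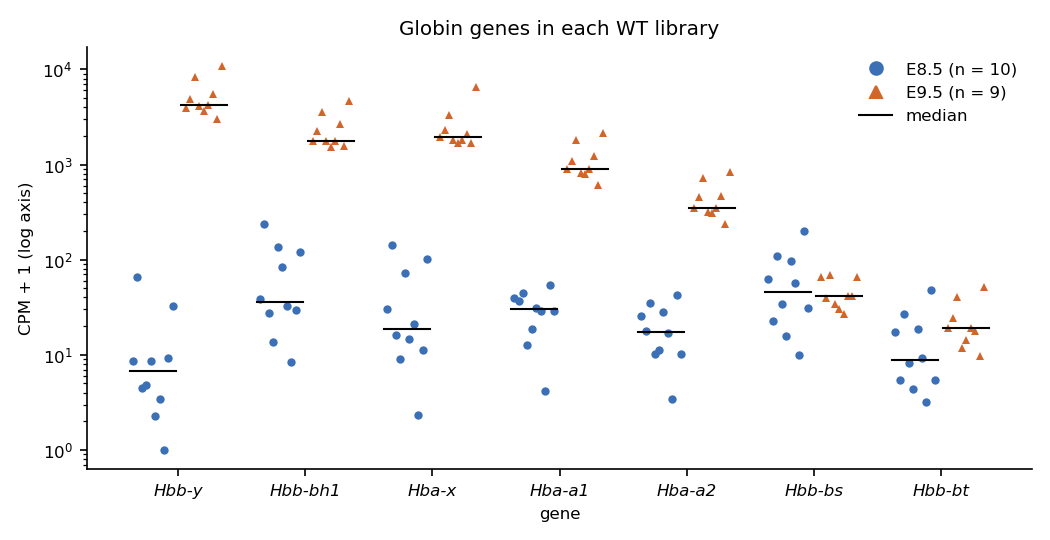
Level of 7 globin genes (columns) in each library, as CPM on a log axis after adding 1, with E8.5 libraries (10 circles) and E9.5 libraries (9 triangles) and a bar at each group median. Hbb-y, Hbb-bh1, Hba-x, Hba-a1 and Hba-a2 have all E9.5 libraries above all E8.5 libraries, while Hbb-bs and Hbb-bt overlap.

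The balance between globins shifted as well. In the primitive erythroid lineage of the mouse, Hbb-bh1 is known to precede Hbb-y. The share of Hbb-y in the counts of both ran from 0 to 23.4% (median 14.1%, n = 10) at E8.5 and from 65.6 to 70.5% (median 69.6%, n = 9) at E9.5, with no overlap (exact two-sided permutation test, p = 2.17e-05, adjusted p = 4.34e-05 over the pair of shares, both chosen after seeing the data). At E10.5 it ran from 70.1 to 71.9% (4 libraries). The share of Hba-a1 and Hba-a2 in the counts of the alpha-type genes was uneven at E8.5, from 26.8 to 90.2% (median 70.2%), and lower at E9.5, from 31.4 to 44.7% (median 39.7%; exact permutation p = 0.0139, adjusted p = 0.0139), a difference that missed the threshold without E8.5 replicates 6, 8 and 9 (exact permutation p = 0.106). All globin genes together took 0.00243 to 0.0494% of the counts at E8.5 (median 0.0251%) and 0.727 to 2.61% at E9.5 (median 0.964%; exact permutation p = 2.17e-05, the smallest that these groups allow).

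The promoters of these genes are printed because genes of 1 cluster moved apart: on chromosome 7 Hbb-y rose while Hbb-bs did not pass the test, and on chromosome 11 Hba-x and Hba-a1 rose together. The sequences are the 250 bases before the annotated start, 5′ to 3′ on the strand of the gene, from RefSeq in GRCm38.p6, at chr7:103853208-103853457 (minus strand) for Hbb-y, chr7:103827929-103828178 (minus strand) for Hbb-bs, chr11:32276350-32276599 (plus strand) for Hba-x and chr11:32283422-32283671 (plus strand) for Hba-a1. Capitals mark GATAA (bound by GATA factors), CACCC (bound by Klf1 and related factors), CCAAT and TATAA on either strand, and overlapping matches merge. No entry for Hbb-bh1 was found.
Hbb-y: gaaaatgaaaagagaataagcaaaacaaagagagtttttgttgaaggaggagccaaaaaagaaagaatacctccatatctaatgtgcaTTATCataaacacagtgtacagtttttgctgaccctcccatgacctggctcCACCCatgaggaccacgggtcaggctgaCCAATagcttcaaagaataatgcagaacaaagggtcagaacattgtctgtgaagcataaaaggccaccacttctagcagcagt
Hbb-bs: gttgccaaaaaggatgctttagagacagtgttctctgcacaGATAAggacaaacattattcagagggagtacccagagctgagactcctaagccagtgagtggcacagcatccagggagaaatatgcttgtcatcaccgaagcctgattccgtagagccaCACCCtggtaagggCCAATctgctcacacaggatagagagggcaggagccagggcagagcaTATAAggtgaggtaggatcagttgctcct
Hba-x: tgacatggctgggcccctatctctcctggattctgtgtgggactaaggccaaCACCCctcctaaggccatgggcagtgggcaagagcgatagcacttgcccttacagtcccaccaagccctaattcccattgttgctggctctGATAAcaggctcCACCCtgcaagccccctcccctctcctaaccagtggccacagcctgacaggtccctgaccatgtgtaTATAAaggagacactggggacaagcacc
Hba-a1: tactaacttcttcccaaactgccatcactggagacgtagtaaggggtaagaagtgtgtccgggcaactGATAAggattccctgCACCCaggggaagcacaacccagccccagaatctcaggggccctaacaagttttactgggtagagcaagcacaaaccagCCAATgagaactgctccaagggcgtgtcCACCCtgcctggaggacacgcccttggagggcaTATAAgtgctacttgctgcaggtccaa
All 4 windows hold 1 GATAA match, as do 22.6% of the 32851 promoter windows in the table, and at least 1 CACCC match, as do 52.0%. The CCAAT match, present in 33.8% of all windows, was found in Hbb-y, Hbb-bs and Hba-a1 but not in Hba-x. TATAA, present in 22.8%, was found in Hbb-bs, Hba-x and Hba-a1 but not in Hbb-y. Hbb-bs, which did not pass the test, holds all 4 motifs, and a match in letters does not show that a factor binds.

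Other erythroid genes rose with the globins. Of 28 tested genes for the red cell membrane and heme synthesis, 14 were DEGs and all of them were higher (median log2 fold change 1.16, against -0.01 over all genes). Slc4a1, the anion exchanger band 3, ran from 0 to 1.93 CPM (median 0) at E8.5 and from 16.4 to 51.6 CPM (median 20.9) at E9.5 (log2 fold change 5.87, SE 0.46, adjusted p = 6.43e-10). Its stages did not overlap. Alas2, the erythroid enzyme that opens heme synthesis, ran from 0.255 to 2.42 CPM (median 1.8) at E8.5 and from 20.9 to 62.7 CPM (median 28.2) at E9.5 (log2 fold change 4.39, SE 0.28, adjusted p = 2.87e-11). Ermap, an erythroid membrane protein gene, had 2 counts in all E8.5 libraries together and 289 in those of E9.5, a ratio of 155 (95% interval 42.6 to 1287, counting error only). Ank1, which anchors band 3 to the membrane skeleton, rose (log2 fold change 3.44, SE 0.39, adjusted p = 1.36e-07), as did Hemgn, a nuclear protein of erythroid cells (log2 fold change 5.16, SE 0.43, adjusted p = 1.36e-09). Of the enzymes of heme synthesis that all cells use, Fech (0.27), Urod (0.07) and Ppox (0.12) did not pass the test, although Fech passed without E8.5 replicate 5 (0.32) or 6 (0.33) or E9.5 replicate 4 (0.31), and Cpox was lower (log2 fold change -0.34, SE 0.13, adjusted p = 0.0256) but missed the threshold without E8.5 replicate 6 (adjusted p = 0.0515) or 9 (adjusted p = 0.051). Of 11 tested erythroid regulators, 6 were DEGs and higher, and 0 were lower. Klf1, the activator of many erythroid genes, ran from 0 to 4.13 CPM (median 0.992) at E8.5 and from 6.45 to 14.4 CPM (median 9.67) at E9.5 (log2 fold change 2.62, SE 0.43, adjusted p = 2.46e-05), without overlap. Gata1 ran from 0 to 10.1 CPM (median 1.05) at E8.5 and from 4.38 to 16.6 CPM (median 5.19) at E9.5 (log2 fold change 1.72, SE 0.54, adjusted p = 0.01), with overlap. Bcl11a, known as a repressor of embryonic globins in later cells, rose (log2 fold change 2.62, SE 0.65, adjusted p = 0.00181). Tal1 (-0.13), Lmo2 (-0.16) and Zfpm1 (-0.2), which also act in the endothelium, did not pass.

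Among hematopoietic progenitor and platelet genes, Pf4, a chemokine of megakaryocytes, ran from 0 to 1.55 CPM (median 0.334) at E8.5 and from 2.72 to 19.4 CPM (median 7.52) at E9.5 (log2 fold change 4.07, SE 0.53, adjusted p = 1.02e-06). Runx1, which is needed for definitive blood formation, was lower (log2 fold change -1.75, SE 0.4, adjusted p = 0.000781), and 7 of the 13 genes listed had too few counts to test. Macrophage genes were near 0 at both stages. Of 18 listed, 3 could be tested, with Laptm5 higher (log2 fold change 1.24, SE 0.41, adjusted p = 0.014) and Lyve1, also of lymphatic and early vessel endothelium, lower (log2 fold change -1.65, SE 0.59, adjusted p = 0.0222), though not without E8.5 replicate 10 (adjusted p = 0.0979). Mean levels were, first at E8.5 and then at E9.5, 0.754 and 0.975 CPM for Csf1r, the receptor of macrophage growth factor, and 0.057 and 0.158 CPM for Ptprc (CD45), and Adgre1 had 0 counts.

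Endothelial genes changed in both directions, with 8 DEGs higher and 2 lower among 24 tested. Etv2, the factor that starts the endothelial and blood lineages, ran from 11.5 to 37.7 CPM (median 15.9) at E8.5 and from 1.37 to 4.06 CPM (median 2.59) at E9.5 (log2 fold change -2.73, SE 0.23, adjusted p = 1.31e-09), with every E9.5 library below every E8.5 library. Sox17 also fell (log2 fold change -1.45, SE 0.27, adjusted p = 0.000101), and which tissue its counts came from was not tested. Kdr, the receptor of early endothelium, fell less than 2-fold (log2 fold change -0.38, SE 0.12, adjusted p = 0.0101) but missed the threshold without normalization factors (adjusted p = 0.0645). In all, 12 of the 24 passed and were higher, 6 passed and were lower and 6 did not pass. Of those that rose, Emcn, a surface mucin of endothelium, ran from 0 to 12.1 CPM (median 3.34) at E8.5 and from 17.8 to 25.2 CPM (median 22.1) at E9.5 (log2 fold change 2.38, SE 0.41, adjusted p = 3.9e-05). Tie1 ran from 0 to 6.06 CPM (median 3.4) at E8.5 and from 10.9 to 17.7 CPM (median 12.9) at E9.5 (log2 fold change 2.09, SE 0.32, adjusted p = 1.08e-05). Cdh5, the cadherin of endothelial junctions, ran from 3.31 to 19.9 CPM (median 15.6) at E8.5 and from 23.2 to 36.8 CPM (median 27.7) at E9.5 (log2 fold change 1.09, SE 0.22, adjusted p = 0.000212), and Cldn5, of the tight junctions, rose by 1.84 on the log2 scale (adjusted p = 7.77e-06). Pecam1 passed below the 2-fold limit (log2 fold change 0.93, SE 0.15, adjusted p = 2.34e-05).

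Genes of the visceral and yolk sac endoderm were lower at E9.5 throughout. All 20 members tested were DEGs in that direction (background 5.09%), and for 16 every E9.5 library lay below every E8.5 library (background 5.94%), with a median log2 fold change of -5.16. Apoa1, an apolipoprotein, ran from 41.3 to 527 CPM (median 247) at E8.5 and from 0.958 to 15.2 CPM (median 2.55) at E9.5 (log2 fold change -6.06, SE 0.56, adjusted p = 6.46e-09). Amn, with Cubn the receptor for uptake of vitamin B12 and proteins, ran from 17.7 to 206 CPM (median 96.1) at E8.5 and from 0.346 to 3.95 CPM (median 0.857) at E9.5 (log2 fold change -6.26, SE 0.51, adjusted p = 1.08e-09). Spink1, a secreted trypsin inhibitor, ran from 122 to 1231 CPM (median 342) at E8.5 and from 2.86 to 15.9 CPM (median 5.11) at E9.5 (log2 fold change -6.04, SE 0.46, adjusted p = 3.42e-10). Apart from these, Slc2a2, a glucose transporter, ran from 10.2 to 127 CPM (median 70.7) at E8.5 and from 0 to 6.18 CPM (median 0) at E9.5 (log2 fold change -6.43, SE 0.69, adjusted p = 6.54e-08). Ttr, the carrier of thyroid hormone, ran from 103 to 943 CPM (median 488) at E8.5 and from 4.41 to 40.5 CPM (median 8.91) at E9.5 (log2 fold change -5.34, SE 0.47, adjusted p = 3.38e-09). Hnf4a, a regulator of this tissue, ran from 4.46 to 56.0 CPM (median 26.2) at E8.5 and from 0 to 1.24 CPM (median 0.597) at E9.5 (log2 fold change -5.36, SE 0.5, adjusted p = 7.59e-09). The summed level of the 22 listed genes was 711 to 5724 CPM (median 2647) at E8.5 and 113 to 293 CPM (median 138) at E9.5. At E8.5 the lowest levels of Apoa1 lay in replicates 2 and 4 (41.7 and 41.3 CPM) and the highest in replicate 6 (527). At E9.5 replicate 8 was highest (15.2 CPM). The embryos had been taken out of their yolk sacs, and how much of this tissue each library still held was not tested. The sulfate transporter Slc13a4 (log2 fold change -5.65, SE 0.49, adjusted p = 2.55e-09) and Cubn, the partner of Amn (log2 fold change -5.85, SE 0.61, adjusted p = 3.91e-08), fell as well. Outside the list, falls of similar size were those of Cldn2, a claudin of absorbing epithelia (log2 fold change -5.63, SE 0.48, adjusted p = 1.85e-09), Pdzk1, a scaffold of transporters at the cell surface (log2 fold change -5.74, SE 0.53, adjusted p = 6.36e-09), and Slc28a2, a nucleoside transporter (log2 fold change -5.94, SE 0.54, adjusted p = 4.95e-09). Smlr1, a gene for a small membrane protein, had 455 counts at E8.5 and 2 at E9.5, a ratio of 212 (95% interval 58.3 to 1755).

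Genes of other tissues around the embryo were low. Of 18 trophoblast genes 4 could be tested, and 3 of these were DEGs and lower, among them Plac1 (log2 fold change -1.37, SE 0.29, adjusted p = 0.000402). Tpbpa, Psg21 and Ctsq had 0 counts in all 19 libraries. Of 21 decidual and uterine natural killer cell genes 7 could be tested, with 2 DEGs higher and 3 lower (median log2 fold change 0.12). The prolactin-family gene Prl8a2 ran from 1.1 to 46.6 CPM (median 11.5) at E8.5 and from 0 to 0.99 CPM (median 0.124) at E9.5 (log2 fold change -5.56, SE 0.7, adjusted p = 5.86e-07), and Prf1 and the granzyme genes had too few counts to test. The sum of the decidual list was 387 to 547 CPM at E8.5 and 574 to 691 CPM at E9.5, most of it from Igfbp4, which embryonic tissue also expresses. The sum of the 18 trophoblast genes was 204 to 634 CPM at E8.5 and 164 to 234 CPM at E9.5, most of it from Peg10 and Hand1, which the embryo also expresses, and its part in the results was not tested.

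Genes of the epiblast and of the early caudal axis went down. Of 10 pluripotency and epiblast genes tested, 8 were DEGs and lower, 0 were higher, and the median log2 fold change was -2.27. Dnmt3b, the de novo DNA methyltransferase of the epiblast, ran from 201 to 546 CPM (median 264) at E8.5 and from 56.6 to 81.4 CPM (median 64.2) at E9.5 (log2 fold change -2.22, SE 0.18, adjusted p = 6.87e-10). Sall4, a zinc finger factor of stem cells, ran from 217 to 543 CPM (median 341) at E8.5 and from 101 to 171 CPM (median 129) at E9.5 (log2 fold change -1.46, SE 0.16, adjusted p = 5.6e-08). The other falls included L1td1, an RNA-binding protein of pluripotent cells (log2 fold change -3.34, SE 0.36, adjusted p = 7.91e-08), Pim2, a kinase (log2 fold change -3.09, SE 0.44, adjusted p = 3.49e-06), and Trap1a, known from tumours and germ cells (log2 fold change -5.38, SE 0.46, adjusted p = 1.84e-09). Pou5f1 and Nanog were already near 0 at E8.5, with means of 1.19 and 1.73 CPM, and were not tested.

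Of 22 tested genes of the tailbud and the axial progenitors, 13 were DEGs and lower and 0 were higher (median log2 fold change -1.22). Cdx1, a homeobox gene that sets posterior identity, ran from 2.8 to 355 CPM (median 89.5) at E8.5 and from 4.31 to 8.52 CPM (median 6.45) at E9.5 (log2 fold change -4.4, SE 0.53, adjusted p = 3.37e-07), with E8.5 replicate 1 (2.8 CPM) below the whole range of E9.5. Its relatives fell less, Cdx2 with log2 fold change -2.59, SE 0.41, adjusted p = 1.53e-05 and Cdx4 with log2 fold change -2.43, SE 0.46, adjusted p = 0.000127. Nkx1-2, a marker of neuromesodermal progenitors, ran from 10.7 to 172 CPM (median 59.1) at E8.5 and from 2.03 to 8.03 CPM (median 5.15) at E9.5 (log2 fold change -3.68, SE 0.41, adjusted p = 1.07e-07). T (Brachyury), the factor of nascent mesoderm, ran from 6.44 to 124 CPM (median 50.5) at E8.5 and from 3.9 to 12.6 CPM (median 7.78) at E9.5 (log2 fold change -2.61, SE 0.39, adjusted p = 6.51e-06), with overlap. Sp5, a target of Wnt signalling, fell (log2 fold change -2.48, SE 0.23, adjusted p = 6.86e-09), and so did Tbx6, a regulator of presomitic mesoderm (log2 fold change -2.28, SE 0.53, adjusted p = 0.000949). The largest decrease of all DEGs that did not overlap was that of Vrtn, a gene linked in mammals to the number of vertebrae, which ran from 1.3 to 46.5 CPM (median 7.77) at E8.5 and from 0 to 0.359 CPM (median 0) at E9.5 (log2 fold change -7.34, SE 0.89, adjusted p = 3.94e-07). At E8.5 Vrtn was highest in replicate 6 and lowest in replicate 2 (46.5 and 1.3 CPM). Of 11 tested genes of the primitive streak, 6 were DEGs and lower, namely T and, with their log2 fold changes, Fgf4 (-3.52), Mesp1 (-2.72), Evx1 (-2.04), Lhx1 (-1.91) and Cyp26a1 (-1.41). The streak genes Mixl1 and Lefty2 reached the count limit of the filter in fewer than 9 libraries and were not tested. Their means were 8.86 and 14.4 CPM at E8.5, held unevenly by its libraries, against 0.507 and 0.307 at E9.5. Node and notochord genes fell in 3 of 7 cases, T, Foxa1 (-1.23) and Nog (-1.2), and Shh, the signal of the notochord and floor plate, rose below 2-fold (log2 fold change 0.71, SE 0.22, adjusted p = 0.00888).

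The Hox genes, which pattern the body from head to tail and come on in the order of their numbers, rose more often than they fell, and the medians below, given without a test, were higher for the later groups. In paralog groups 1 to 4, 3 of 11 tested were DEGs and higher and 2 were lower, with a median log2 fold change of 0.68. In groups 5 to 8, 6 of 10 were higher and 0 were lower (median 1.04, range -0.17 to 2.99). In groups 9 to 13, 7 of 12 were higher and 0 were lower (median 1.83, range 0.07 to 4.44). Hoxb1 was lower, but below 2-fold (log2 fold change -0.79, SE 0.18, adjusted p = 0.000888). At the other end, Hoxd11 ran from 0 to 2.58 CPM (median 0.48) at E8.5 and from 13.8 to 19.9 CPM (median 17.2) at E9.5 (log2 fold change 4.44, SE 0.32, adjusted p = 1.38e-10). Hoxc10 ran from 0 to 5.38 CPM (median 2.25) at E8.5 and from 16.4 to 62.6 CPM (median 40.1) at E9.5 (log2 fold change 4.15, SE 0.37, adjusted p = 3.08e-09). For both, all E9.5 libraries lay above all E8.5 libraries. Hoxc genes rose along their cluster, with log2 fold changes of 2.99 for Hoxc5, 2.02 for Hoxc6, 2.08 for Hoxc9 and 3.21 for Hoxc11, while Hoxc8 between them did not pass (-0.08, adjusted p = 0.882). Hoxb9 did not pass either (0.07, 95% interval -0.67 to 0.81).

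**Figure D3:**
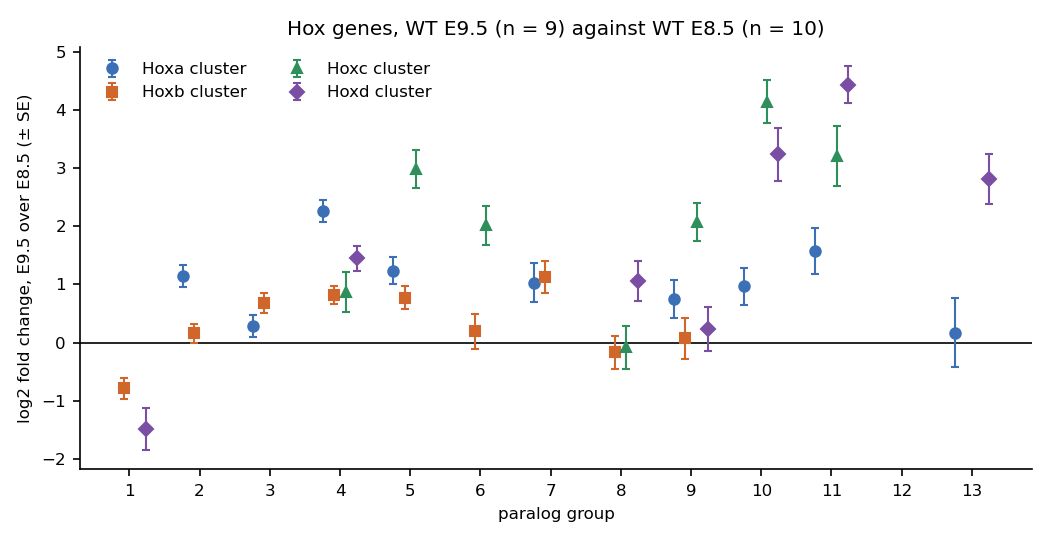
Log2 fold change of 32 Hox genes between E8.5 and E9.5 (vertical axis, positive is higher at E9.5) against its paralog group (horizontal axis), with a symbol for each cluster and bars of 1 standard error. Hoxd1 lies lowest of those plotted at -1.49 and Hoxd11 highest at 4.44.

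Many neural genes rose. Of 22 tested genes of the neurogenic cascade, 12 were DEGs and higher and 0 were lower (background 7.01% higher), with a median log2 fold change of 1.32, and for 12 of the 22 every E9.5 library lay above every E8.5 library (background 6.94%). Neurog1, a proneural gene which acts in sensory and dorsal neurons, ran from 0 to 1.53 CPM (median 0.258) at E8.5 and from 8.77 to 17.9 CPM (median 13.7) at E9.5 (log2 fold change 4.91, SE 0.39, adjusted p = 7.68e-10), and Neurog2 ran from 0.123 to 2.2 CPM (median 0.681) at E8.5 and from 9.02 to 20.8 CPM (median 16.1) at E9.5 (log2 fold change 4.02, SE 0.33, adjusted p = 1.13e-09). Genes that act after them rose as well. Neurod1 ran from 0 to 0.617 CPM (median 0.308) at E8.5 and from 10.0 to 19.5 CPM (median 15.3) at E9.5 (log2 fold change 5.74, SE 0.33, adjusted p = 7.41e-12). Neurod4 ran from 0 to 0.511 CPM (median 0) at E8.5 and from 3.95 to 19.0 CPM (median 8.62) at E9.5 (log2 fold change 7.1, SE 0.49, adjusted p = 9.89e-11). Nhlh1 had 2 counts in all E8.5 libraries together and 472 at E9.5, a ratio of 253 (95% interval 69.7 to 2098). Insm1, a zinc finger factor of new neurons, rose (log2 fold change 3.96, SE 0.33, adjusted p = 1.55e-09). Prdm8, St18 and Sst had 0 counts in all 10 E8.5 libraries. Set against a floor of 3 counts for the E8.5 group as a whole, Prdm8, a transcriptional regulator of neurons, was at least 146-fold higher, Sst, which encodes somatostatin, at least 103-fold, and St18, a zinc finger gene, at least 56.2-fold.

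The Notch pathway, which holds back neurogenesis, moved unevenly. Hes5, the main Notch effector in neural progenitors, ran from 6.07 to 55.8 CPM (median 19.8) at E8.5 and from 84.3 to 134 CPM (median 109) at E9.5 (log2 fold change 2.06, SE 0.31, adjusted p = 7.88e-06), whereas Hes1 fell below 2-fold (log2 fold change -0.34, SE 0.07, adjusted p = 0.000337) and Hes3, of the early neural plate, fell (log2 fold change -1.65, SE 0.16, adjusted p = 1.3e-08). Among the other members of a list of 21 tested, 5 DEGs beside Hes5 were higher, Jag2 (1.92), Heyl (3.19), Nrarp (1.31), Mfng (1.59) and Notch4 (1.01), and Hes7, of the segmentation clock, was lower (log2 fold change -1.7, SE 0.4, adjusted p = 0.00112). Notch1 (0.31, but 0.4 and adjusted p = 0.0248 without E8.5 replicate 2) and the ligand Dll1 (0.04) did not pass.

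Of 21 tested genes of neural progenitors, 9 were DEGs and higher and 0 lower. Pou3f3, a POU factor of the neural tube, ran from 0 to 2.2 CPM (median 1.13) at E8.5 and from 21.8 to 56.1 CPM (median 36.8) at E9.5 (log2 fold change 5.2, SE 0.35, adjusted p = 6.51e-11). Zic1, of the dorsal neural tube, ran from 0 to 15.2 CPM (median 5.56) at E8.5 and from 79.9 to 108 CPM (median 87.6) at E9.5 (log2 fold change 3.88, SE 0.42, adjusted p = 6.74e-08). Nes, an intermediate filament of progenitors, ran from 15.3 to 34.8 CPM (median 23.4) at E8.5 and from 71.0 to 104 CPM (median 82.1) at E9.5 (log2 fold change 1.78, SE 0.14, adjusted p = 3.73e-10). Sox1 (0.3) and Pax6 (0.59) did not pass, and Sox2 rose below 2-fold (log2 fold change 0.59, SE 0.18, adjusted p = 0.00875). The regional genes differed. Of 16 forebrain and eye field genes, 8 were higher. Dlx1, of the ventral forebrain, ran from 0 to 0.766 CPM (median 0) at E8.5 and from 3.82 to 8.86 CPM (median 6.71) at E9.5 (log2 fold change 5.62, SE 0.47, adjusted p = 1.26e-09), and Dlx2 rose as well (log2 fold change 3.23, SE 0.26, adjusted p = 7.14e-10), while Otx2 (-0.35, but -0.49 and adjusted p = 0.00518 without E8.5 replicate 8), Six3 (0.19) and Rax (-0.07), which are on from the neural plate stage, did not pass. Of 14 midbrain and hindbrain genes, 3 passed and were higher, 4 passed and were lower and 7 did not pass (median log2 fold change -0.24). The 3 higher were DEGs, among them En2 (log2 fold change 1.93, SE 0.39, adjusted p = 0.000237) and Lmx1b (log2 fold change 1.13, SE 0.22, adjusted p = 0.000136). Gbx2 was the only DEG that was lower (log2 fold change -1.42, SE 0.22, adjusted p = 1.15e-05). Of 17 regulators of the dorsoventral axis of the neural tube, 9 were DEGs and higher. Dbx1, of the intermediate progenitors, ran from 0 to 1.42 CPM (median 0.133) at E8.5 and from 9.79 to 21.6 CPM (median 14.1) at E9.5 (log2 fold change 4.99, SE 0.42, adjusted p = 1.38e-09), and Olig2, of the motor neuron progenitors, ran from 0 to 4.41 CPM (median 0.377) at E8.5 and from 7.41 to 20.3 CPM (median 14.8) at E9.5 (log2 fold change 3.42, SE 0.51, adjusted p = 7.09e-06). The largest of the rest was Lbx1, of dorsal interneurons and migrating muscle precursors (log2 fold change 2.99, SE 0.52, adjusted p = 4.48e-05).

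Genes of neuron structure rose in 13 of 29 cases, and 0 DEGs were lower. Tubb2b, a neuronal beta-tubulin, ran from 85.8 to 263 CPM (median 166) at E8.5 and from 987 to 1526 CPM (median 1349) at E9.5 (log2 fold change 2.94, SE 0.18, adjusted p = 1.4e-11). Elavl4, an RNA-binding protein of neurons, ran from 1.85 to 9.38 CPM (median 7.39) at E8.5 and from 27.3 to 73.3 CPM (median 39.6) at E9.5 (log2 fold change 2.72, SE 0.21, adjusted p = 4.04e-10). Dcx, which binds microtubules in migrating neurons, rose (log2 fold change 4.19, SE 0.54, adjusted p = 8.46e-07), as did Tubb3 (log2 fold change 1.53, SE 0.19, adjusted p = 6.5e-07). Against the list, Ina and Stmn2, both of neuronal processes, were lower below 2-fold (log2 fold change -0.92, SE 0.16, adjusted p = 6.64e-05 for Ina and log2 fold change -0.81, SE 0.16, adjusted p = 0.000138 for Stmn2), and Nefl (-0.07) and Nefm (0.3, but 0.68 and adjusted p = 0.00387 without E8.5 replicates 6, 8 and 9) did not pass. Of 20 regulators of neuron identity, 8 were higher, among them Lhx9 (3.49) and Lhx3 (3.48), and 3 were lower, Evx1 and Lhx1, which also mark the streak and mesoderm, and Lhx5 (-1.11).

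**Figure D4:**
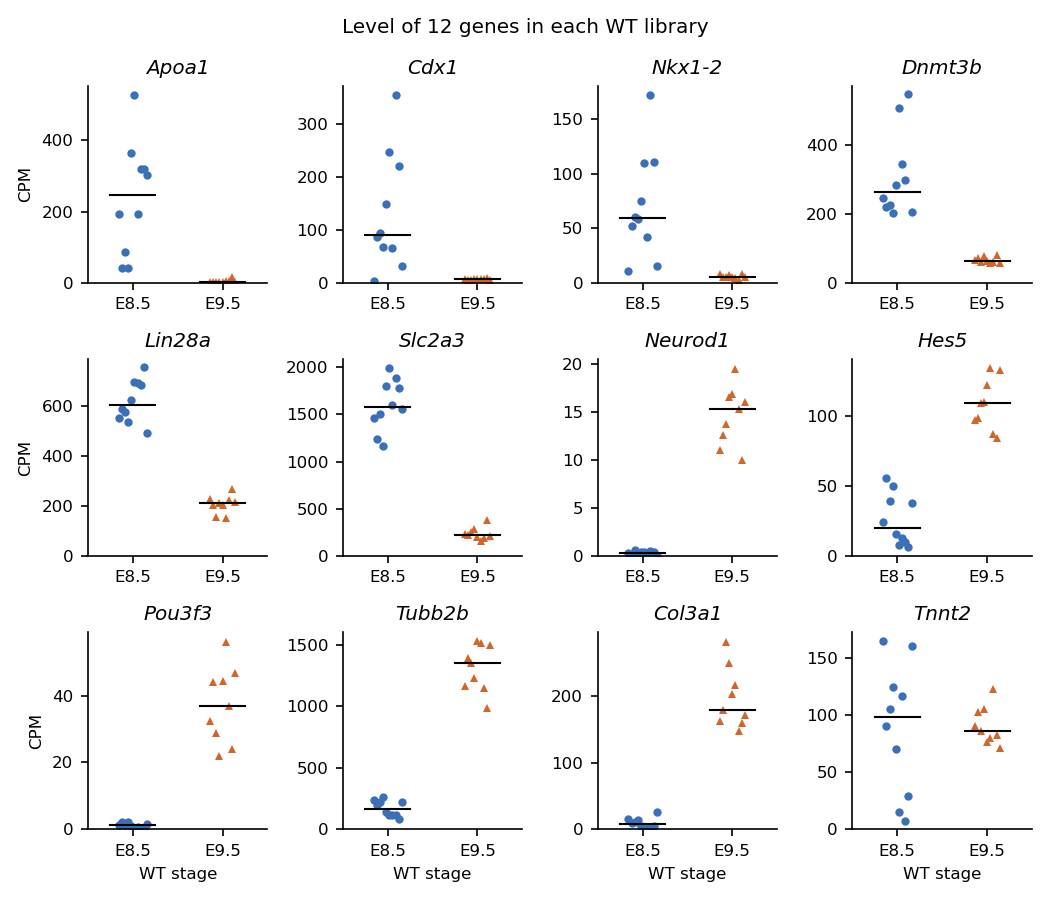
Level of 12 genes (panels) in each library, as CPM on a linear axis from 0, with E8.5 libraries as circles (10), E9.5 libraries as triangles (9) and a bar at each group median. Apoa1, Cdx1, Nkx1-2, Dnmt3b, Lin28a and Slc2a3 are lower at E9.5 and Neurod1, Hes5, Pou3f3, Tubb2b and Col3a1 higher. For Cdx1, E8.5 replicate 1 (2.8 CPM) lies below all E9.5 libraries, so its groups overlap. Tnnt2 also overlaps, with E8.5 replicates 6, 8 and 9 at 15.2, 7.24 and 29.0 CPM below all others.

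Of 25 neural crest genes tested, 16 passed and were higher, 10 of them DEGs, and 1 passed and was lower. Tfap2b ran from 0 to 31.4 CPM (median 11.2) at E8.5 and from 50.4 to 73.1 CPM (median 58.0) at E9.5 (log2 fold change 2.23, SE 0.49, adjusted p = 0.000588). Crabp1, a retinoic acid binding protein of crest and hindbrain, ran from 118 to 439 CPM (median 256) at E8.5 and from 627 to 888 CPM (median 799) at E9.5 (log2 fold change 1.62, SE 0.21, adjusted p = 7.83e-07), without overlap. Alx4, a homeobox gene of facial mesenchyme, rose (log2 fold change 2.42, SE 0.35, adjusted p = 4.24e-06). Of the list, 8 genes did not pass, among them the early crest factors Foxd3 (-0.53, but -1.03 and adjusted p = 0.000164 without E8.5 replicates 6, 8 and 9), Snai2 (0.08) and Tfap2a (0.04). Sox10, the crest and glia factor, had a median of 7.15 CPM at E8.5 and 24.1 at E9.5, with overlap, and it missed the threshold (log2 fold change 1.06, SE 0.52, adjusted p = 0.0943) but passed without E8.5 replicate 10 (1.38, adjusted p = 0.0314). Of 25 genes of surface ectoderm and other epithelia, 4 were DEGs and higher and 6 were lower. Krt18, a keratin of simple epithelia, ran from 168 to 365 CPM (median 247) at E8.5 and from 51.6 to 75.3 CPM (median 71.2) at E9.5 (log2 fold change -1.93, SE 0.12, adjusted p = 2.57e-11), and its partner Krt8 ran from 78.4 to 145 CPM (median 108) at E8.5 and from 21.6 to 38.7 CPM (median 29.4) at E9.5 (log2 fold change -1.85, SE 0.11, adjusted p = 1.61e-11). Trp63, of the epidermal lineage, rose (log2 fold change 2.31, SE 0.46, adjusted p = 0.000188). Cdh1, the epithelial cadherin, fell (log2 fold change -1.08, SE 0.19, adjusted p = 6.5e-05), and the neural cadherin Cdh2 rose below 2-fold (log2 fold change 0.61, SE 0.14, adjusted p = 0.000907).

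In these whole embryos, genes listed for heart muscle and those listed as cardiac transcription factors went different ways. Whether heart cells were the source of the changes was not tested, and Hand1 is also in the trophoblast list. Of 32 genes of the sarcomere and heart muscle, 12 were DEGs and higher and 0 were lower. Myl2, the light chain of the ventricle, ran from 1.28 to 26.0 CPM (median 8.86) at E8.5 and from 60.5 to 114 CPM (median 77.6) at E9.5 (log2 fold change 2.71, SE 0.36, adjusted p = 1.32e-06). Nppa, the natriuretic peptide of the chambers, ran from 0 to 4.02 CPM (median 0.898) at E8.5 and from 15.6 to 35.3 CPM (median 22.7) at E9.5 (log2 fold change 3.95, SE 0.41, adjusted p = 3.43e-08). Pln, which restrains the calcium pump, rose (log2 fold change 4.08, SE 0.5, adjusted p = 4.16e-07), and so did Tnni3, the cardiac troponin I (log2 fold change 2.55, SE 0.41, adjusted p = 1.76e-05). Of the list, 17 genes did not pass. Tnnt2, the cardiac troponin T, ran from 7.24 to 165 CPM (median 98.5) at E8.5 and from 71.7 to 123 CPM (median 85.8) at E9.5, with overlap (log2 fold change 0.04, 95% interval -0.7 to 0.78). Without E8.5 replicates 6, 8 and 9 it was lower at E9.5, with a log2 fold change of -0.39 (adjusted p = 0.0255), and the list held 9 DEGs that were higher and 0 that were lower. In the full comparison Myl7 gave 0.19 and Atp2a2 -0.02. Of 19 cardiac transcription factors, 2 were higher and 5 lower. Tbx20 ran from 30.8 to 99.7 CPM (median 51.6) at E8.5 and from 12.3 to 22.6 CPM (median 17.6) at E9.5 (log2 fold change -1.66, SE 0.18, adjusted p = 5.12e-08) and Gata4 ran from 23.3 to 57.1 CPM (median 34.1) at E8.5 and from 10.3 to 13.5 CPM (median 12.6) at E9.5 (log2 fold change -1.49, SE 0.14, adjusted p = 1.26e-08), both below E8.5 in every library. Myocd (log2 fold change -1.09, SE 0.33, adjusted p = 0.00856) and Hand1 (log2 fold change -1.05, SE 0.2, adjusted p = 0.000143) fell as well. Tbx5, of the inflow tract, atria and forelimb field, was higher (log2 fold change 1.04, SE 0.25, adjusted p = 0.00115).

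Among genes of somites, 6 of 18 tested were DEGs and higher and 0 lower. Uncx, of the caudal part of each somite, ran from 0 to 2.98 CPM (median 1.62) at E8.5 and from 20.6 to 42.7 CPM (median 24.2) at E9.5 (log2 fold change 4.17, SE 0.36, adjusted p = 1.98e-09). Pax1, of the sclerotome, ran from 0 to 4.94 CPM (median 1.53) at E8.5 and from 8.38 to 34.1 CPM (median 24.2) at E9.5 (log2 fold change 3.75, SE 0.48, adjusted p = 9.52e-07). Of 21 limb bud and body wall genes, 7 were higher, such as Prrx1, of limb mesenchyme (log2 fold change 1.63, SE 0.13, adjusted p = 5.93e-10), and Shox2 (log2 fold change 2.57, SE 0.36, adjusted p = 2.34e-06), and 3 were lower, among them Tbx4, of the allantois and hindlimb (log2 fold change -1.57, SE 0.55, adjusted p = 0.0197), whose adjusted p was 0.0578 without E8.5 replicate 8. Urogenital genes were higher in 4 of 16 cases, with Wt1, also of the mesothelium, first (log2 fold change 2.72, SE 0.33, adjusted p = 3.06e-07), and lower in 3. In the list for gut, liver, lung and pancreas, 14 of 25 were lower, of which Apoa1, Ttr and Afp are also genes of the yolk sac endoderm, and Barx1, of the stomach mesenchyme and jaws, was the only DEG that was higher (log2 fold change 4.41, SE 0.29, adjusted p = 3.87e-11). Alb had a mean of 0.0382 CPM at E8.5 and 0.419 at E9.5, too few counts for a test.

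Fibrillar matrix genes rose, with 17 DEGs higher and 0 lower among 27 tested (median log2 fold change 1.23). Col3a1, of type III collagen, ran from 0.981 to 25.9 CPM (median 7.11) at E8.5 and from 148 to 282 CPM (median 179.6) at E9.5 (log2 fold change 4.45, SE 0.36, adjusted p = 7.9e-10). Col1a1 ran from 28.4 to 68.9 CPM (median 47.0) at E8.5 and from 85.9 to 274 CPM (median 194) at E9.5 (log2 fold change 1.9, SE 0.2, adjusted p = 3.47e-08) and Col1a2 ran from 29.2 to 87.8 CPM (median 60.9) at E8.5 and from 153 to 286 CPM (median 234) at E9.5 (log2 fold change 1.93, SE 0.16, adjusted p = 1.31e-09), the chains of type I collagen. Postn, a matrix protein of valves and mesenchyme, rose (log2 fold change 2.26, SE 0.43, adjusted p = 0.000125). Fibronectin, the matrix of early mesoderm, went the other way (Fn1, log2 fold change -0.75, SE 0.13, adjusted p = 4.18e-05). Basement membrane genes did not move together, with 1 DEG (Nid1, log2 fold change 1.28, SE 0.22, adjusted p = 3.25e-05) among 17 and a median of -0.03.

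Of 22 tested ligands, receptors and feedback genes of FGF signalling, 11 passed and were lower, 5 passed and were higher and 6 did not pass. Of the DEGs, 5 were lower and 0 higher. Fgf4 ran from 1.42 to 19.9 CPM (median 4.49) at E8.5 and from 0 to 0.98 CPM (median 0.461) at E9.5 (log2 fold change -3.52, SE 0.5, adjusted p = 3.29e-06) and Fgf3 ran from 8.94 to 45.9 CPM (median 17.9) at E8.5 and from 1.84 to 5.1 CPM (median 2.98) at E9.5 (log2 fold change -2.77, SE 0.29, adjusted p = 3.88e-08). Fgf8, a ligand of the tail and several signalling centres, fell below 2-fold (log2 fold change -0.57, SE 0.18, adjusted p = 0.0105). Of the targets, Etv4 fell (log2 fold change -1.65, SE 0.26, adjusted p = 1.11e-05) and Dusp6 rose below 2-fold (log2 fold change 0.62, SE 0.08, adjusted p = 8.32e-07). Among 12 Wnt ligands, Wnt3a (log2 fold change -1.03, SE 0.33, adjusted p = 0.0115) and Wnt5b (log2 fold change -1.03, SE 0.28, adjusted p = 0.0039), both of the caudal end, were lower, Wnt3a missing the threshold without E8.5 replicates 6, 8 and 9 (adjusted p = 0.113), and Wnt4 (1.56), Wnt7a (1.98), Wnt7b (2.02), Wnt8b (2.03) and Wnt9a (3.11) were higher. Of the Wnt receptors, antagonists and targets, Axin2, a common target, fell below 2-fold (log2 fold change -0.62, SE 0.13, adjusted p = 0.000242), and Rspo2 had the largest rise (log2 fold change 3.7, SE 0.45, adjusted p = 4.3e-07). Of 29 genes of BMP and activin signalling 4 were higher and 2 lower. Bmp2 fell (log2 fold change -1.11, SE 0.14, adjusted p = 7.99e-07) and Bmp4 rose below 2-fold (log2 fold change 0.89, SE 0.12, adjusted p = 2.81e-06). Of 15 Hedgehog genes, Ihh, which is made by the visceral endoderm, fell (log2 fold change -3.48, SE 0.38, adjusted p = 8.91e-08) and Gas1, a co-receptor, rose (log2 fold change 1.56, SE 0.15, adjusted p = 9.25e-09), and the target Ptch1 fell below 2-fold (log2 fold change -0.9, SE 0.06, adjusted p = 1.38e-10) while the target Gli1 did not pass (0.13).

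Genes of retinoic acid metabolism exchanged members. Aldh1a2, the main enzyme of retinoic acid synthesis in the trunk mesoderm, ran from 37.8 to 172 CPM (median 81.3) at E8.5 and from 26.8 to 45.5 CPM (median 33.9) at E9.5 (log2 fold change -1.44, SE 0.22, adjusted p = 7.36e-06), while Aldh1a3, of the eye and face, ran from 0 to 1.05 CPM (median 0.388) at E8.5 and from 15.8 to 26.7 CPM (median 18.4) at E9.5 (log2 fold change 5.4, SE 0.31, adjusted p = 7.41e-12). Of the degrading enzymes, Cyp26a1, of the tail, ran from 9.48 to 27.9 CPM (median 17.7) at E8.5 and from 4.84 to 8.46 CPM (median 7.08) at E9.5 (log2 fold change -1.41, SE 0.2, adjusted p = 2.53e-06), while Cyp26b1, of hindbrain and limb, ran from 0.855 to 10.4 CPM (median 4.23) at E8.5 and from 47.3 to 101 CPM (median 80.7) at E9.5 (log2 fold change 3.99, SE 0.34, adjusted p = 1.83e-09). The orphan nuclear receptor genes Nr2f1 and Nr2f2 rose. Nr2f1 ran from 1.59 to 91.8 CPM (median 31.8) at E8.5 and from 189 to 292 CPM (median 236) at E9.5 (log2 fold change 2.74, SE 0.41, adjusted p = 7.86e-06) and Nr2f2 ran from 16.4 to 175 CPM (median 84.3) at E8.5 and from 281 to 458 CPM (median 358) at E9.5 (log2 fold change 2.2, SE 0.3, adjusted p = 2.21e-06). In all, 6 of 19 genes of this pathway were DEGs and higher and 4 were lower.

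Of 15 genes of developmental timing around Lin28a, 6 passed and were lower, 3 passed and were higher, and 3 of those lower were DEGs. Lin28a, which blocks maturation of let-7 miRNAs, ran from 489 to 755 CPM (median 603) at E8.5 and from 152 to 265 CPM (median 211) at E9.5 (log2 fold change -1.58, SE 0.1, adjusted p = 1.6e-11), and Trim71, itself a let-7 target, ran from 222 to 302 CPM (median 259) at E8.5 and from 79.4 to 145 CPM (median 119) at E9.5 (log2 fold change -1.2, SE 0.09, adjusted p = 5.65e-10). Prtg, a surface protein of the early neural tube and mesoderm, ran from 1157 to 1793 CPM (median 1507) at E8.5 and from 372 to 714 CPM (median 501) at E9.5 (log2 fold change -1.5, SE 0.11, adjusted p = 1.99e-10). Lin28b, the paralog of Lin28a, did not pass (0.03, 95% interval -0.16 to 0.23). Nr6a1 (GCNF), a nuclear receptor gene of this developmental window, ran from 409 to 753 CPM (median 578) at E8.5 and from 80.4 to 168 CPM (median 136) at E9.5 (log2 fold change -2.12, SE 0.13, adjusted p = 1.02e-11). Among the DNA methylation enzymes, Dnmt3b was the only DEG, while the maintenance enzyme Dnmt1 rose below 2-fold (log2 fold change 0.97, SE 0.08, adjusted p = 1.78e-09). Of 30 imprinted genes, 5 were higher, Plagl1 first (log2 fold change 1.71, SE 0.16, adjusted p = 1.2e-08), and 2 lower. Phlda2, which limits growth of the placenta, ran from 164 to 1092 CPM (median 379) at E8.5 and from 19.8 to 70.3 CPM (median 31.9) at E9.5 (log2 fold change -3.69, SE 0.34, adjusted p = 6.07e-09). Cdkn1c, a growth inhibitor of the same imprinted region, rose below 2-fold (log2 fold change 0.72, SE 0.12, adjusted p = 2.63e-05).

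Among genes of glucose use, the transporters fell by more than 2-fold and most enzymes by less. Slc2a3, the high-affinity glucose transporter GLUT3, ran from 1168 to 1993 CPM (median 1578) at E8.5 and from 161 to 376 CPM (median 223) at E9.5 (log2 fold change -2.76, SE 0.14, adjusted p = 4.48e-13). Slc2a1 (GLUT1) ran from 1158 to 1469.6 CPM (median 1392) at E8.5 and from 327 to 496 CPM (median 405) at E9.5 (log2 fold change -1.78, SE 0.08, adjusted p = 4.01e-14). The lactate transporter Slc16a1 ran from 259.5 to 583 CPM (median 378) at E8.5 and from 79.7 to 137 CPM (median 98.3) at E9.5 (log2 fold change -2.01, SE 0.17, adjusted p = 1.13e-09). All E9.5 libraries were below all E8.5 libraries for these transporters. Of 20 glycolysis genes tested, 13 passed and were lower (background 25.9%) and 1 was higher, but beside the transporters Aldoc alone was a DEG (log2 fold change -1.89, SE 0.26, adjusted p = 2.49e-06). Ldha, which makes lactate, ran from 1438 to 2109 CPM (median 1808) at E8.5 and from 922 to 1217 CPM (median 1085) at E9.5 (log2 fold change -0.76, SE 0.06, adjusted p = 1.84e-09), and Gapdh, Tpi1 and Hk2 fell by 0.6, 0.76 and 0.69 on the log2 scale. Hk1 was the one that rose (log2 fold change 0.96, SE 0.19, adjusted p = 0.000152). Among 13 other targets of HIF, the factor of the response to low oxygen, 7 passed and were lower, 0 were higher and 0 were DEGs. Bnip3 had the largest fall (log2 fold change -0.87, SE 0.17, adjusted p = 0.000194), and Vegfa fell (log2 fold change -0.44, SE 0.15, adjusted p = 0.0158), which missed the threshold without normalization factors (adjusted p = 0.0804) and without E8.5 replicates 6, 8 and 9 (adjusted p = 0.108).

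Transcripts of the mitochondrial genome took 1.22 to 3.15% of the counts at E8.5 (median 1.5%) and 3.29 to 4.22% at E9.5 (median 3.86%; exact permutation p = 2.17e-05). Of 8 tested genes, 7 passed and were higher and 3 were DEGs. mt-Nd4 ran from 1884 to 5289 CPM (median 2611) at E8.5 and from 7383 to 13147 CPM (median 9216) at E9.5 (log2 fold change 1.73, SE 0.17, adjusted p = 2.04e-08) and mt-Cytb ran from 1603 to 4067 CPM (median 2091) at E8.5 and from 4178 to 7539 CPM (median 5547) at E9.5 (log2 fold change 1.25, SE 0.16, adjusted p = 1.27e-06), and mt-Nd2 rose as well (log2 fold change 1.1, SE 0.15, adjusted p = 2.6e-06). Both mt-Nd2 and mt-Nd4 encode subunits of the respiratory NADH dehydrogenase and mt-Cytb one of another complex. Genes of the respiratory chain in the nucleus did not follow, with 14 of 44 higher and 10 lower, 1 DEG (Sdhd, log2 fold change 1.45, SE 0.35, adjusted p = 0.00147) and a median of 0.03. Identifier ENSMUSG00000119584 ran from 151941 to 209399 CPM (median 181078) at E8.5 and from 39041 to 86378 CPM (median 51394) at E9.5 (log2 fold change -1.68, SE 0.13, adjusted p = 4.19e-10), the largest fall in CPM of all genes.

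Genes of growth and division moved little. Of 30 genes of ribosome biogenesis, 15 passed and were lower and 3 were higher, and 0 were DEGs (median -0.15). Bop1 had the largest change (log2 fold change -0.75, SE 0.07, adjusted p = 6.12e-09). Of 39 ribosomal protein genes, 8 were higher and 3 lower, with 0 DEGs and a median of -0.01. DNA replication (33 tested, 6 higher and 9 lower) and mitosis (28 tested, 12 higher and 4 lower) had 0 DEGs, with medians of 0.04 and 0.13. Of 17 cyclins, kinases and inhibitors, 12 passed and were higher, and E2f2 (log2 fold change 1.95, SE 0.16, adjusted p = 1.13e-09) and Rbl2 (log2 fold change 1.01, SE 0.33, adjusted p = 0.0127) were DEGs. Of 16 p53 targets, 3 were higher and 5 lower, and Pmaip1 was the only DEG (log2 fold change -1.01, SE 0.31, adjusted p = 0.00903). Stress and immediate early genes were higher in 5 of 13 cases, with 4 DEGs, Ddit3 (1.91), Egr1 (1.41), Jun (1.28) and Hspb1 (1.24). Commd10 itself ran from 37.0 to 52.0 CPM (median 42.5) at E8.5 and from 39.1 to 55.6 CPM (median 47.4) at E9.5, and did not pass (log2 fold change 0.11, SE 0.07, adjusted p = 0.195) except without normalization factors (0.24, adjusted p = 0.00816). Of 15 tested COMMD and partner genes, 5 passed and were lower, 1 was higher and 0 were DEGs.

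Among genes often used to scale measurements, stage effects ranged widely. Ppia (0.03, 95% interval -0.2 to 0.25) and Gusb (0.02, -0.14 to 0.19) had intervals around 0, while Gapdh (-0.6, adjusted p = 2.27e-06) and Actb (-0.36, adjusted p = 0.000122) were lower and B2m (0.86, adjusted p = 1.6e-08) and Tubb5 (0.65, adjusted p = 6.06e-07) higher at E9.5. Of 18 such genes 7 passed and were lower and 3 were higher. Further genes with a large change in level were Mdk, a growth factor gene, which ran from 739.9 to 1214 CPM (median 1017) at E8.5 and from 1864 to 2366 CPM (median 2171) at E9.5 (log2 fold change 1.12, SE 0.08, adjusted p = 1.99e-10), Emb, a partner of the monocarboxylate transporters, which ran from 366 to 1196 CPM (median 612) at E8.5 and from 73.5 to 106 CPM (median 89.4) at E9.5 (log2 fold change -2.93, SE 0.19, adjusted p = 3.5e-11), and Fth1, the ferritin heavy chain, which ran from 735 to 1601 CPM (median 952) at E8.5 and from 465 to 599 CPM (median 501) at E9.5 (log2 fold change -1.05, SE 0.12, adjusted p = 2.33e-07).

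The same step was compared with that of Commd10Null embryos, which are homozygous for the insertion and were taken at the same days. The study describes these mutants as abnormal and retarded in growth at E8.5, and as degrading, with signs of resorption, at E9.5. How far this state entered the differences below was not tested. The interaction was tested in 1 model of 25 libraries, in which the steps share no library, with means ± SD on the scale of these libraries (10, 9, 3 and 3). Of 14640 genes tested, 270 (1.84%) had a step more positive in WT and 476 (3.25%) a step more negative in WT, at the same thresholds. Without normalization factors the split turned, to 410 and 333. These 746 genes included 349 of the 1538 DEGs of the WT step (22.7%), 347 of them with the sign of the WT step. The DEGs were chosen by the WT step, which is part of this difference. The overlap and the shared sign therefore follow in part from that choice and are not read as a result. Hba-a2 went from 18.8 ± 12.2 to 440.4 ± 199 CPM in WT and from 129.9 ± 27.0 to 107 ± 57.7 CPM in Commd10Null embryos (difference of log2 steps 4.84, SE 0.71, adjusted p = 0.000108). Hba-a1 went from 28.3 ± 14.8 to 1126 ± 508 CPM and from 197 ± 66.3 to 318 ± 190.4 CPM in the same order (difference of log2 steps 4.63, SE 0.7, adjusted p = 0.000201). The adult gene Hbb-bt, which had not passed between WT stages, went from 13.4 ± 13.6 to 21.8 ± 13.8 CPM in WT and from 102 ± 4.49 to 10.0 ± 8.36 CPM in Commd10Null embryos (difference of log2 steps 4.06, SE 0.95, adjusted p = 0.00805). Without scaling factors, Commd10Null E8.5 replicates 1, 2 and 3 held 156, 115 and 104 CPM of Hba-a2 and 41.8, 14.1 and 0 CPM of Hbb-y. Whether the adult globin counts came from cells of the embryo was not tested. Col3a1 went from 8.84 ± 7.74 to 194 ± 44.5 CPM and from 12.8 ± 1.22 to 21.3 ± 20.7 CPM (difference of log2 steps 3.73, SE 0.81, adjusted p = 0.0051), and Rgs2, a regulator of G protein signalling, from 17.0 ± 5.87 to 70.3 ± 8.55 CPM and from 38.3 ± 13.4 to 15.5 ± 6.79 CPM (difference of log2 steps 3.36, SE 0.4, adjusted p = 8.89e-06). The embryonic globins did not pass, Hbb-y giving a difference of log2 steps 3.04, SE 1.22, adjusted p = 0.118, from 12.8 ± 19.8 to 5290.4 ± 2516 CPM in WT and from 19.1 ± 22.0 to 966 ± 827 CPM in Commd10Null embryos. Of 23 tested genes of the neurogenic cascade, 7 were more positive and 1 more negative in WT. The yolk sac endoderm genes led the other direction, with 16 of 21 tested more negative in WT. Slc2a2 went from 65.3 ± 40.8 to 0.747 ± 2.01 CPM and from 152 ± 57.0 to 75.5 ± 119 CPM (difference of log2 steps -5.41, SE 1.39, adjusted p = 0.0147), and Apoa4, an apolipoprotein, from 27.1 ± 19.3 to 0.395 ± 0.674 CPM and from 53.1 ± 6.01 to 31.2 ± 47.2 CPM (difference of log2 steps -5.28, SE 1.24, adjusted p = 0.00847). Vrtn gave a difference of log2 steps -5.94, SE 1.5, adjusted p = 0.0129, from 15.6 ± 16.8 to 0.0814 ± 0.136 CPM and from 55.4 ± 49.8 to 21.3 ± 23.9 CPM. Rhox6, a homeobox gene of placenta and germ cells, went from 4.0 ± 2.52 to 0.205 ± 0.222 CPM and from 5.66 ± 0.514 to 50.3 ± 75.5 CPM (difference of log2 steps -7.34, SE 1.24, adjusted p = 0.00056). The SD among the Commd10Null libraries of E9.5 exceeded their mean for Rhox6, Apoa4, Slc2a2 and Vrtn. Single libraries moved these counts. Without Commd10Null E9.5 replicate 3 they were 485 and 608, without replicate 2 of that group 416 above 0, and without Commd10Null E8.5 replicate 3 191 and 295. Apoa4 (adjusted p = 0.171) and Slc2a2 (adjusted p = 0.332) no longer passed without Commd10Null E9.5 replicate 3, Vrtn (adjusted p = 0.0645) without replicate 1 of that group, and Slc2a2 also without Commd10Null E8.5 replicate 3 (adjusted p = 0.0527) and by the Wald test of DESeq2 (adjusted p = 0.052).

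The step was also set against the next one, from E9.5 to E10.5, in 1 model of the 23 WT libraries. Both steps use the E9.5 libraries, so their difference was tested as a single contrast and no relation between them is given (means ± SD over 10, 9 and 4 libraries). Of 14122 genes, 452 (3.20%) had a first step more positive than the second and 577 (4.09%) a first step more negative. Of the DEGs of the first step, 43.7% were among the 1029 genes that differed. These DEGs were chosen by the first step, which is part of the contrast, so this share follows in part from that choice and is not read as a result. Globin genes had a first step more positive than the second in 3 of 3 embryonic, 2 of 4 adult and 1 of 1 theta-type genes tested. Hbb-y went from 13.2 ± 20.3 CPM at E8.5 to 5441 ± 2586 at E9.5 and 9445 ± 2249 at E10.5 (difference of log2 steps 7.9, SE 0.98, adjusted p = 3.9e-06). Hba-x went from 41.6 ± 47.9 CPM at E8.5 to 2614 ± 1602 at E9.5 and 4227 ± 1509 at E10.5 (difference of log2 steps 5.28, SE 0.94, adjusted p = 0.000305), Hba-a1 from 29.2 ± 15.2 CPM at E8.5 to 1158 ± 522 at E9.5 and 2182 ± 460.4 at E10.5 (difference of log2 steps 4.4, SE 0.55, adjusted p = 4.68e-06) and Hbb-bh1 from 72.6 ± 74.0 CPM at E8.5 to 2426 ± 1076 at E9.5 and 3857 ± 1011 at E10.5 (difference of log2 steps 4.39, SE 0.82, adjusted p = 0.000518). Pou3f3 was the other gene of the 5 with the largest positive difference, from 1.0 ± 0.857 CPM at E8.5 to 37.8 ± 11.6 at E9.5 and 66.6 ± 12.9 at E10.5 (difference of log2 steps 4.39, SE 0.51, adjusted p = 1.9e-06). The largest negative differences were those of yolk sac endoderm genes, in which 17 of 21 tested had a first step more negative than the second. Apoa1 went from 241 ± 158 CPM at E8.5 to 3.62 ± 4.57 at E9.5 and 27.9 ± 49.7 at E10.5 (difference of log2 steps -9.01, SE 1.41, adjusted p = 7.32e-05), S100g, a calcium-binding protein of absorbing epithelia, from 53.9 ± 37.7 CPM at E8.5 to 1.46 ± 2.03 at E9.5 and 14.3 ± 28.0 at E10.5 (difference of log2 steps -8.53, SE 1.62, adjusted p = 0.0006), Amn from 103 ± 64.2 CPM at E8.5 to 1.35 ± 1.15 at E9.5 and 5.59 ± 9.75 at E10.5 (difference of log2 steps -8.35, SE 1.31, adjusted p = 7.9e-05), Apom, an apolipoprotein, from 142 ± 89.4 CPM at E8.5 to 2.79 ± 3.48 at E9.5 and 15.0 ± 23.7 at E10.5 (difference of log2 steps -8.1, SE 1.24, adjusted p = 6.22e-05), and Slc2a2 from 67.5 ± 42.4 CPM at E8.5 to 0.768 ± 2.07 at E9.5 and 2.26 ± 3.9 at E10.5 (difference of log2 steps -8.01, SE 1.67, adjusted p = 0.00147). The SD among the 4 libraries of E10.5 exceeded the mean for each of these 5 genes. Without E10.5 replicate 1, the library with the high levels, Amn (adjusted p = 0.0514), S100g (adjusted p = 0.452) and Slc2a2 (adjusted p = 0.295) no longer passed. Of Hox genes of groups 9 to 13, 7 of 14 tested had the larger rise in the first step and 0 in the second, and of 34 genes of neuron structure 2 had a first step more positive and 9 more negative than the second, among them Ina (difference of log2 steps -3.51, SE 0.31, adjusted p = 4.1e-08) and Stmn2 (difference of log2 steps -3.39, SE 0.32, adjusted p = 9.81e-08).

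**Figure D5:**
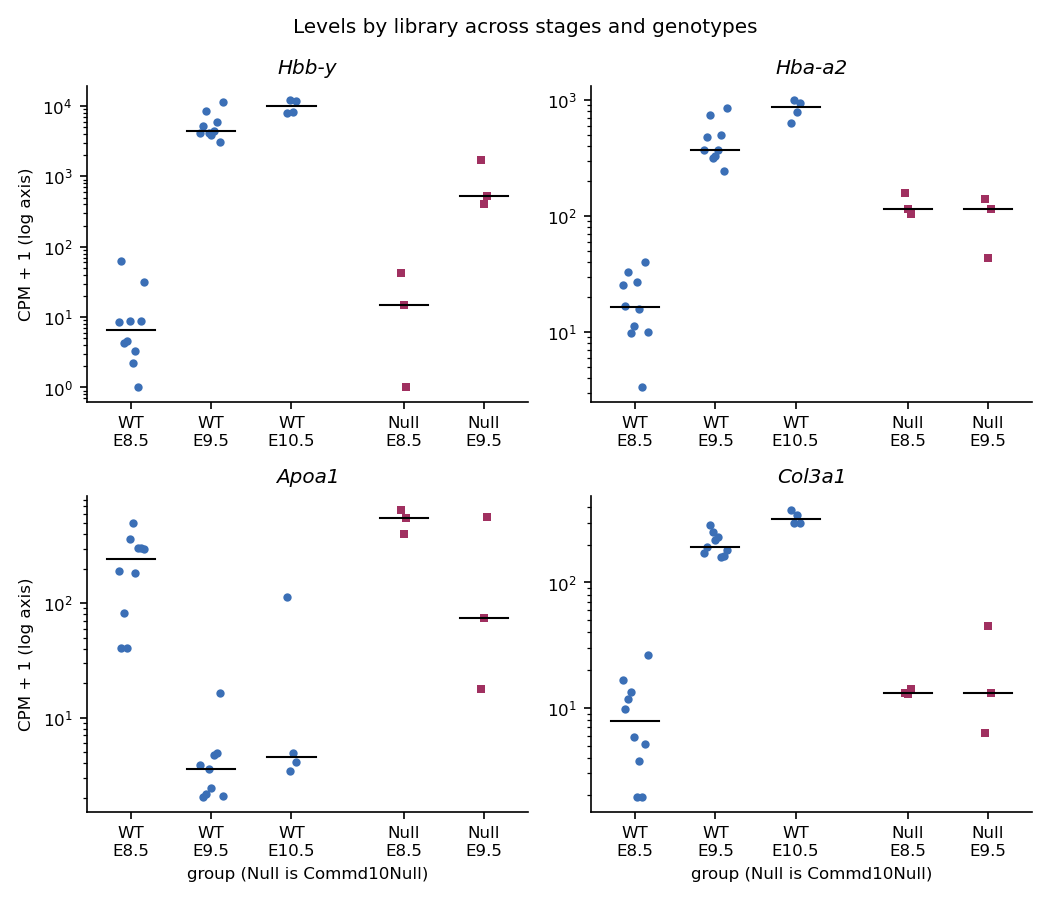
Level of 4 genes (panels) in each library of WT embryos (circles, 10 of E8.5, 9 of E9.5, 4 of E10.5) and Commd10Null embryos (squares, 3 and 3 at E8.5 and E9.5), as CPM without scaling factors on a log axis after adding 1, with a bar at each group median. Hbb-y and Hba-a2 lie higher at E9.5 than at E8.5 in all WT libraries, and Hba-a2 of Commd10Null embryos overlaps between stages. Apoa1 of Commd10Null E9.5 (16.7, 73.1 and 562 CPM) lies above every WT E9.5 library (at most 15.5), and WT E10.5 has 1 high library (112).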

How the data were processed

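3′ tag sequencing (QuantSeq FWD) was run on RNA of whole mouse embryos, and the authors deposited 1 table of raw counts for each Ensembl identifier, with 55414 identifiers in 32 libraries. Reads were trimmed (the submitters' processing notes name Trimmomatic 0.35, the study's methods BBDuk) and aligned with STAR to mm10. For counting, the tool, strand setting and annotation release are not stated in the sources used here, so overlapping, antisense and near-identical genes may share counts. Total counts ran from 7025188 to 8583012, and no library pair of a group matched within sampling noise (chi-square per gene of at least 3.02).

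From these counts, edgeR 4.0.16 in R 4.3.3 (TMM factors, filterByExpr with 10 counts, glmQLFit and glmQLFTest, Benjamini-Hochberg adjustment over all genes tested) compared 9 WT libraries of E9.5 with 10 of E8.5. Every adjusted p of a gene is from this test unless another is named. Genes passed at an adjusted p of 0.05 and were DEGs with a log2 fold change of 1 or more in size. A further pair of contrasts tested how the step differed from that of Commd10Null embryos (25 libraries) and from the next WT step (23 libraries). Shares of counts were compared by exact two-sided permutation tests over libraries (scipy 1.17.1), adjusted over each family. Intervals are 95% and, for genes of 3 counts or fewer in a stage, cover counting error only. The fits were tested on simulated data. DESeq2 1.42.0, other factors and filters, a fit of all 32 libraries, a block for the replicate number and leaving out each library were the alternatives. A term for sex and the joint removal of E8.5 replicates 6, 8 and 9 were added after seeing the data.

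Named genes are the 15 largest changes each way among DEGs without overlap between stages, the 10 largest changes of mean CPM each way, members of 63 gene lists (1187 genes, 8 or fewer named of a larger list, and members against its direction) and, for each difference between steps, the 5 largest each way with at least 50 CPM in 1 group. Other named genes were chosen after their values were seen. Members and lists were chosen with earlier results of these data known. Replicate numbers did not pair the libraries. Some genes that this rule names are not reported here. Protein sequences were not used here.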

Additional observations from a re-analysis of the deposited data

Results flagged for a closer look

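For part of the genes named and for the shares of counts, the 10 libraries of E8.5 and the 9 of E9.5 were searched by the test of Dixon. It looks for 1 library far from the others of its group. Chance meets its limit in about 1 in 20 groups where values are normally distributed, which was not tested here. Of 174 groups tested 18 had such a library, and it was the highest each time. Replicate 8 of E9.5 stood above the rest for genes of the yolk sac endoderm: Apoa1 at 15.2 CPM (others 0.958 to 3.7), Ttr at 40.5 (4.41 to 11.1), Slc2a2 at 6.18 (0 to 0.365) and Amn at 3.95 (0.346 to 1.86). All of these values lay below the E8.5 minimum of their gene.

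Replicate 9 of E9.5 had 6549.9 CPM of Hba-x (others 1664 to 3336) and 16.6 CPM of Gata1 (4.38 to 8.58), and replicate 6 had 19.0 CPM of Neurod4 (3.95 to 9.68). At E8.5, replicate 9 was apart for Hbb-bs (201 CPM against 8.83 to 109), Hbb-bt (46.9 against 2.21 to 25.9) and Gata4 (57.1 against 23.3 to 40.3). Replicate 8 was apart for Etv2 (37.7 CPM against 11.5 to 24.4), Fgf4 (19.9 against 1.42 to 7.98) and Hoxd11 (2.58 against 0 to 1.28). Replicate 7 was apart for Prl8a2 (46.6 CPM against 1.1 to 20.1), Dlx1 (0.766 against 0 to 0.255) and Neurod4 (0.511, with 0 in all others). The remaining values were 64.1 CPM of Hbb-y in replicate 2 (others 0 to 31.4) and 10.1 CPM of Gata1 in replicate 6 (0 to 3.38).

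By the interaction test of edgeR, the WT step from E8.5 differed from the Commd10Null step by log2 differences of 4.84 for Hba-a2, 4.63 for Hba-a1, 4.06 for Hbb-bt, 3.73 for Col3a1 and 3.36 for Rgs2, and of -7.34 for Rhox6, -5.94 for Vrtn, -5.41 for Slc2a2 and -5.28 for Apoa4. The first WT step differed from the second by 7.9 for Hbb-y, 5.28 for Hba-x, 4.4 for Hba-a1, 4.39 for Hbb-bh1 and 4.39 for Pou3f3, and by -9.01 for Apoa1, -8.53 for S100g, -8.35 for Amn, -8.1 for Apom and -8.01 for Slc2a2. These are among the largest differences of genes with at least 50 CPM in 1 group, so their size was part of their choice.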

How the results depend on the processing

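The counts of DEGs, 891 higher and 647 lower, depended mainly on the filter and the fold limit. They were 1774 and 1466 with no filter on low counts, 449 and 301 with a filter of 50 counts, which tests fewer genes, and 3212 and 3298 with no minimum fold. The Wald test of DESeq2 gave 898 and 646, RLE size factors 895 and 643, the table without globins 885 and 642, the table without the most abundant identifier 878 and 653, all 32 libraries 907 and 623, and a term for sex 857 and 637. Without normalization factors, which moved the median log2 fold change of all genes from -0.01 to 0.114, they were 1086 and 546. Leaving out each library gave 845 to 928 higher and 585 to 711 lower. For the WT against the Commd10Null step, 270 above and 476 below 0 became 191 to 485 and 295 to 608 with single libraries left out, and 410 genes lay above 0 without normalization factors. For the first against the second WT step, 452 and 577 became 387 to 505 and 387 to 626.

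Replicate numbers did not pair the libraries: the correlation of deviations between libraries of 1 number ran from -0.07 to 0.12, was over 0.1 in 1 of 9 pairs, and 1 of 9 E9.5 libraries correlated best with its own number. With the replicate number as a block the counts were 1010 and 566 between stages, 21 and 29 for the step against that of Commd10Null embryos, which keeps only shared numbers, and 418 and 234 for the first against the second step.

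Of 228 named genes, 197 passed, and 8 of these missed the threshold under at least 1 alternative while 8 others passed under one. Tnnt2 alone turned direction, from 0.04 to -0.39 without E8.5 replicates 6, 8 and 9. For genes that passed under no setting no direction is claimed. Depth limits genes near 1 CPM, and spread among E8.5 libraries and 3 Commd10Null libraries a stage limit the rest. All shares of counts kept their side of the threshold except that of Hba-a1 and Hba-a2, whose difference was -14.5 points without E8.5 replicates 6, 8 and 9.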
